A study of Xerophyta schlechteri with 51 samples.

Results

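The comparison described here sets senescent leaf tissue (ST) against non-senescent leaf tissue (NST) of the resurrection plant Xerophyta schlechteri, both taken 48 h after rewatering of the dried plant. Its members are 3 ST and 3 NST libraries, chosen by the state and stage in their labels, out of 51 libraries in the series. The other libraries come from NST, ST and pre-senescent tissue (PST) at full turgor, at 75%, 55%, 35% and <10% RWC (relative water content, which is set against a fully hydrated leaf) and after rewatering. No PST library at full turgor was analysed here. All groups share the same species and leaf blade, and the labels name no treatment other than water. Within a stage the labels tell ST from NST by state alone, which does not show that the tissues were otherwise alike. The labels give the water content as that of the NST, and state that it varied among rewatered leaves.

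Leaves of resurrection plants lose nearly all their cell water and resume metabolism when it returns. Drying shuts down growth and photosynthesis and builds up protective proteins and sugars, and in Xerophyta chlorophyll and thylakoids are taken apart and rebuilt after rewatering. Senescence also dismantles the chloroplast, but it ends in the death of the tissue.

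The deposited table gives FPKM, a fragment count divided by transcript length and by a measure of the library's size. It holds 21815 entries, each under a gene ID, and these entries are called genes below. The files do not pair the IDs with names or functions, so genes are described by their levels, no marker check of the tissue labels was made, and 4 IDs are named. Absolute depth is unknown. Relative depth, the fragments behind 1 unit of FPKM compared with the mean library, was 0.5, 0.53 and 0.78 in ST replicates 0, 1 and 2, and 0.66, 0.66 and 1.0 in the NST replicates. Low values are therefore coarser in ST replicates 0 and 1. The labels do not say whether the libraries of a group are from different plants. The p-values therefore cover the spread between these libraries alone, which may be technical. The table holds bulk tissue, in which fewer cells of a type and less RNA per cell cannot be told apart.

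After rewatering, a majority of the tested genes differed between the tissues. Of 18717 genes tested, 4293 were higher in ST (22.9% of those tested) and 5755 were lower (30.7%), 10048 in all or 53.7% (limma, adjusted p under 0.05). Levels were compared as log2(FPKM + 1), a scale that understates the change of low genes. The genes higher in ST had a median log2 difference of 1.58, and those lower in ST a median of -1.71, while the median over all tested genes was -0.13. A difference of at least 1 on the log2 scale was found for 3392 genes higher in ST (18.1%) and 4797 lower (25.6%). At a difference of at least 2 these were 1485 (7.93%) and 2318 (12.4%), and at a difference of at least 4 they were 351 (1.88%) and 427 (2.28%).

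The difference between the tissues was larger than the spread among their libraries. The 9 pairs of 1 ST and 1 NST library differed by a root mean square of 1.65 to 2.04 on the log2 scale. Pairs within ST differed by 0.77 to 0.83 and pairs within NST by 0.46 to 0.86. The 3 ST libraries lay about equally far from each other. In NST, replicates 0 and 1 differed by 0.46, and each differed from replicate 2 by 0.85 or 0.86. Replicate 2 was also the NST library nearest to every ST library. All 3 ST libraries stood above all 3 NST libraries for 5000 genes (26.7%) and below them for 6382 (34.1%), together 60.8% of the tested genes, and 93.9% of the called genes were among these.

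How many genes are called in each direction changes with library scaling. Of the called genes, 42.7% were higher in ST. Quantile normalization, which gives each library the same distribution of values, moved the median over all genes from -0.13 to 0.06 and the higher share to 51.4%, with 4961 genes higher and 4690 lower. No gene called in both fits changed its direction, and 8366 of the 10048 calls were kept.

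**Figure D1:**
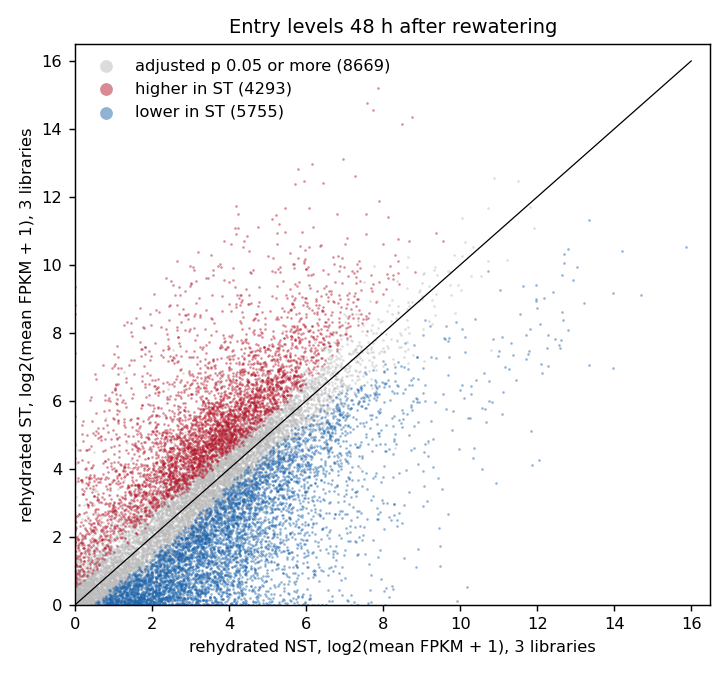
Mean level of each tested gene in rehydrated NST (horizontal axis) and rehydrated ST (vertical axis), both as log2(mean FPKM + 1) over 3 libraries, with 1 point per gene and the line of equal level. The 4293 genes called higher in ST lie above the line and the 5755 called lower lie below it, and both groups reach the highest levels measured.

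The 4 named genes were the largest log2 difference and the largest FPKM difference in each direction. Only genes whose ST and NST libraries do not overlap after rewatering could be named, so that separation is fixed by the choice. The choice also favours their tests of a change in the tissue difference between stages. Xvis03_220597 was the most abundant transcript of rehydrated ST. It stood at 36063.2, 48635 and 28503.5 FPKM in ST replicates 0, 1 and 2, and at 157.28, 201.06 and 335.11 FPKM in the NST replicates. Every ST library was thus far above every NST library, and the log2 difference was 7.38 (standard error 0.98; limma, adjusted p = 6.52e-08). The gene ranked 356 by mean level in rehydrated NST. In dry leaves it had been abundant in both tissues, at 28100 ± 10900 FPKM in NST and 26600 ± 4410 FPKM in ST (SD, n = 3 each), and there the log2 difference of -0.02 did not pass (limma, adjusted p = 1). At full turgor the gene stood at 578.78, 23.26 and 7.11 FPKM in ST replicates 0, 1 and 2. The NST replicates held 4.32, 10.88 and 3.34 FPKM, and the log2 difference of 2.9 did not pass (limma, adjusted p = 0.408). The tissue difference was larger after rewatering than in dry leaves by 7.41 on the log2 scale (standard error 1.38, limma, adjusted p = 3.32e-05), and larger than at full turgor by 4.48 (standard error 1.38, limma, adjusted p = 0.0103).

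Xvis03_203960 was the most abundant transcript of rehydrated NST. Its levels were 69459.7, 74508 and 34542.7 FPKM in NST replicates 0, 1 and 2, and 2454.99, 1173.47 and 792.04 FPKM in the ST replicates. The groups did not overlap, and the log2 difference was -5.42 (standard error 1; limma, adjusted p = 2e-05). Its rank in ST was still 59. NST at full turgor held 13300 ± 5660 FPKM and ST at full turgor 4970 ± 2170 FPKM, and at <10% RWC the levels were 872 ± 1140 and 183 ± 248 FPKM (SD, n = 3 each). The tissue difference after rewatering exceeded that at full turgor, with a log2 value of -4.00 (standard error 1.42, limma, adjusted p = 0.025), while against dry leaves the value of -3.03 did not pass (limma, adjusted p = 0.0716).

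Xvis03_210618 had the largest log2 difference among the genes lower in ST. In NST replicates 0, 1 and 2 it reached 1417.17, 1551.06 and 522.77 FPKM, and in the ST replicates 0.25, 0.93 and 0.16 FPKM. The log2 difference was -9.54 (standard error 0.64; limma, adjusted p = 9.87e-15). This gene was near 0 in every dry library of NST and ST, between 0.05 and 0.84 FPKM, and stood at 765 ± 334 FPKM in NST and 364 ± 244 FPKM in ST at full turgor (SD, n = 3 each). The rehydrated NST libraries overlapped those of full turgor, and the rehydrated ST libraries overlapped the dry ones. In rehydrated PST it was at 13.44, 24.06 and 0.65 FPKM in replicates 0, 1 and 2, so that replicates 0 and 1 lay between the tissues and replicate 2 within the range of ST.

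Xvis03_211061 followed another course. It was listed at 0 in all 3 rehydrated NST libraries and stood at 439.26, 731.65 and 175.64 FPKM in ST replicates 0, 1 and 2 (limma, adjusted p = 3.97e-07). No fold is given, since a listed 0 may stand for an estimate that failed. The gene was above 0 in all libraries of the other groups, with 383.93 to 1161.83 FPKM in NST at full turgor and 41.54 to 92.26 FPKM in dry NST. Rehydrated PST held 4407.89, 6722.64 and 1125.15 FPKM in replicates 0, 1 and 2. Every rehydrated PST library thus stood above every rehydrated ST and NST library, a difference that was not tested.

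**Figure D2:**
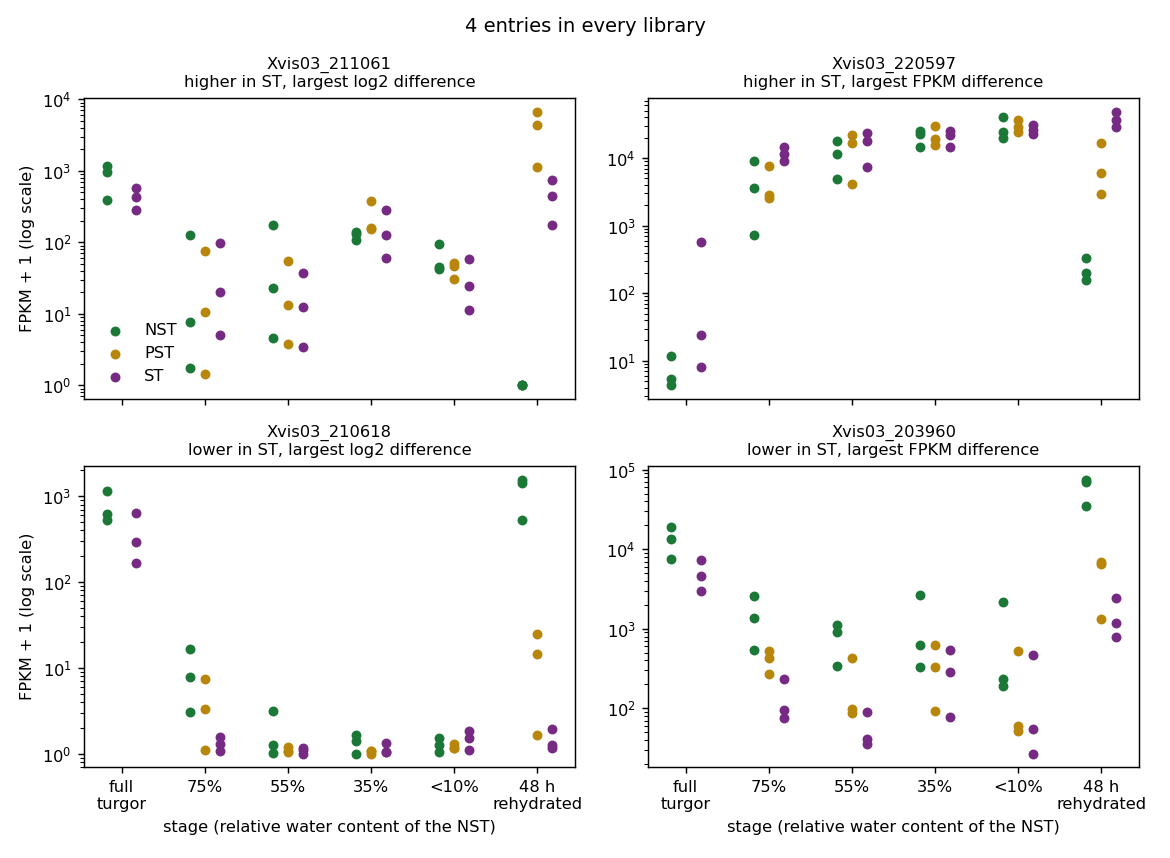
FPKM + 1 on a log axis for the 4 named genes in every library, by stage along the horizontal axis and by tissue (colour), with 1 point per library. At the rehydrated stage the NST points stand apart from the ST points in all 4 panels, which the rule for naming requires. At <10% RWC, which had no part in the rule, the points of the tissues overlap.

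The most abundant transcripts were largely exchanged between the tissues. Of the 100 genes with the highest mean in rehydrated ST and the 100 in rehydrated NST, 17 were in both lists. The ST list held 33.8% to 38.1% of the summed FPKM in the ST libraries and 14.8% to 16.6% in the NST libraries. The NST list held 45.3% to 51.5% in NST and 5.29% to 7.67% in ST. These lists were chosen on the same libraries, which fixes their direction. In libraries that did not choose them, the ST list held 33.4% to 39% of the summed FPKM of dry NST, against 8.97% to 11.6% in NST at full turgor. For the NST list the shares ran the other way, with 4.03% to 4.79% in dry NST and 17.7% to 27.8% in NST at full turgor. Over all called genes, the 4293 higher ones made up 69.7 ± 2.91% of the summed FPKM in ST and 9.67 ± 1.94% in NST, and the 5755 lower ones 7.81 ± 1.71% in ST and 68.3 ± 3.73% in NST (SD, n = 3 each).

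The share and direction of the calls varied with the level of the gene. Genes were grouped by their mean FPKM in the 45 libraries that are not compared, a grouping chosen after the data were seen. Most of these libraries come from drying stages, so the classes are not independent of the drying response. The filter of at least 1 FPKM in at least 3 libraries counts the compared libraries as well. A gene low in the others can thus be tested through the 3 libraries of the tissue where it is high, which favours a call. How many genes entered this way was not counted, and the shares below 1 FPKM are a description alone. From 1000 FPKM upward 75% of 80 genes were higher in ST and 7.5% lower, and between 100 and 1000 FPKM 58.9% and 15% of 1104 genes. Between 20 and 100 FPKM the shares were 40.1% and 18.7% of 4599 genes, and between 5 and 20 FPKM 22.3% and 30% of 5845 genes. Between 1 and 5 FPKM they were 7.96% and 41.6% of 4524 genes, and below 1 FPKM 2.85% and 42.5% of 2565 genes. Under quantile normalization the shares were, from the highest class to the lowest, 76.2% and 5%, 52.4% and 19.1%, 35.6% and 22.6%, 28.5% and 25.4%, 17.6% and 26.7%, and 8.81% and 29%. The balance thus turned between 5 and 20 FPKM and kept its side in the other classes. By the higher of the rehydrated ST and NST means, 42.8% of 173 genes from 1000 FPKM upward were higher and 46.8% lower. Between 100 and 1000 FPKM these shares were 51.4% and 28.1% of 1681 genes. That grouping uses the compared libraries. The excess of higher genes in the top class thus depended on how genes were grouped. The log2(FPKM + 1) scale shrinks differences of low genes, and what this does to the shares was not tested. With 0.1 in place of the added 1, 4419 genes were called higher and 5769 lower over all levels. More genes were also listed at 0 in ST. A total of 176 genes were at 0 in all 3 ST libraries with at least 1 FPKM in all 3 NST libraries, against 18 in the reverse case, and with at least 10 FPKM these were 27 and 5. ST replicates 0 and 1 had the lowest relative depth of the 6 libraries, and the part of depth in these counts was not tested.

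The next question was how the rehydrated difference relates to drying, which can be asked in libraries that it does not share. In NST at <10% RWC, 4149 genes were higher (22.2% of those tested) and 5543 lower (29.6%) than at full turgor, 9692 in all or 51.8%. Of the 4293 genes higher in rehydrated ST, 3196 (74.4%) had risen in drying NST and 29 (0.676%) had fallen. Of the 5755 genes lower in rehydrated ST, 4172 (72.5%) had fallen in drying NST and 21 (0.365%) had risen. Seen from the drying lists, 77% of the risen genes were higher in rehydrated ST and 75.3% of the fallen genes were lower. In ST, drying raised 4677 genes (25% of those tested) and lowered 5493 (29.3%), 10170 in all or 54.3%. These held fewer of the rehydrated calls, with 61.6% of the genes higher in rehydrated ST among the risen ones and 60.6% of the lower genes among the fallen ones. ST drying had moved 227 genes (5.29%) down that were higher in rehydrated ST, and 196 (3.41%) up that were lower.

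**Figure D3:**
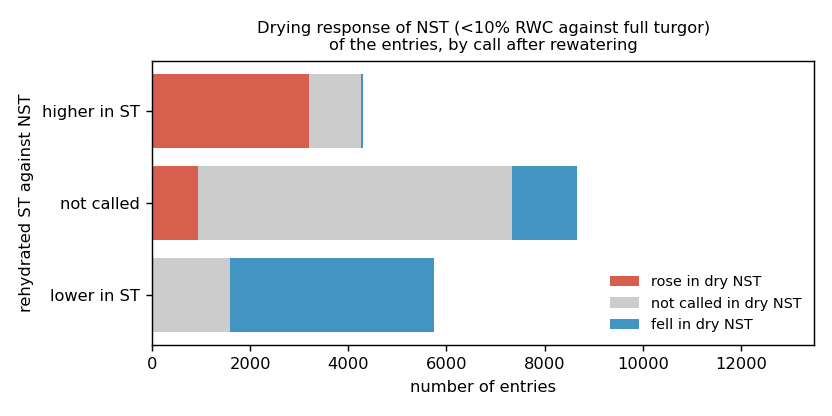
Number of genes by their call in rehydrated ST against NST (bars) and by their call in NST at <10% RWC against full turgor (colours). Of the genes higher in ST 3196 had risen in dry NST, of those lower in ST 4172 had fallen, and of the 8669 without a call 6395 had none in drying either.

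The called genes were followed through the series by their median level relative to the mean of NST at full turgor. The genes higher in rehydrated ST started level in both tissues, at 0.04 ± 0.03 in ST at full turgor. They stood at 0.46 ± 0.27 in NST and 0.82 ± 0.17 in ST at 75% RWC, and at 1.3 ± 0.04 in NST and 1.17 ± 0.06 in ST at <10% RWC (log2, SD, n = 3 libraries each). The genes lower in rehydrated ST stood at -0.11 ± 0.07 in ST at full turgor, and at <10% RWC at -1.39 ± 0.04 in NST and -1.25 ± 0.08 in ST. None of these stages chose the genes. In the rehydrated libraries that did, the higher set was at -0.15 ± 0.09 in NST and 1.44 ± 0.11 in ST, and the lower set at 0.3 ± 0.16 and -1.43 ± 0.09. The rehydrated values are pushed apart by the choice of the sets and are given as a description.

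**Figure D4:**
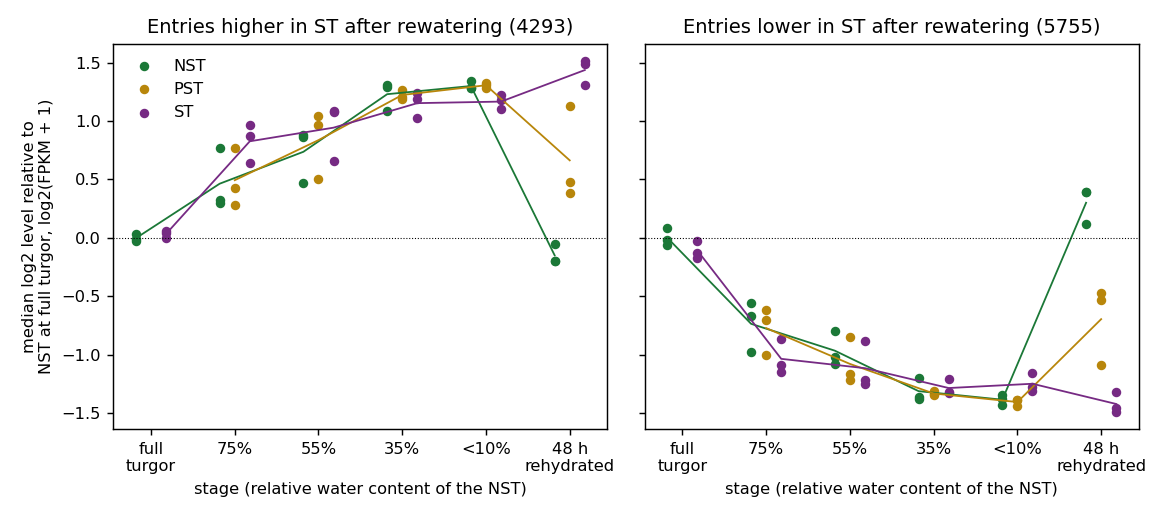
Median log2 level relative to NST at full turgor, for the genes higher (left) and lower (right) in rehydrated ST, by stage and tissue, with 1 point per library and lines through the group means. From 75% to <10% RWC the sets lie on the same side of full turgor in all tissues, and at 48 h NST stands at -0.15 and 0.3, ST at 1.44 and -1.43, and PST lies between at 0.66 and -0.7.

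For most of the strongly differing genes it was NST that stood near full turgor. Among the 3392 genes at least 1 higher in ST, the NST mean was nearer than the ST mean to NST at full turgor for 85.4%, and for 82.9% when ST at full turgor was the reference. For the 4797 genes at least 1 lower in ST the shares were 77.4% and 71.8%. ST was off by at least 1 and NST within 1 for 2288 (67.5%) of the higher and 2691 (56.1%) of the lower genes. In dry NST these genes had medians of 1.81 ± 0.07 and -1.93 ± 0.05 (log2, SD, n = 3 each).

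A smaller class showed the opposite arrangement, with NST away from full turgor and ST near it. It held 274 (8.08%) of the genes at least 1 higher in ST and 611 (12.7%) of those at least 1 lower. On the log2(FPKM + 1) scale a gene below 1 FPKM at full turgor cannot fall by 1. Low genes that fell may therefore count as near full turgor. The 611 genes had medians of -0.45 ± 0.02 in dry NST and -0.43 ± 0.06 in dry ST. They stood at 1.6 ± 0.53 in rehydrated NST and -0.33 ± 0.18 in rehydrated ST. Their medians in the rehydrated NST libraries ran from 0.99 to 1.93. Rehydrated PST, which had no part in the choice, was at 0.21 ± 0.36. The 274 genes stood at 0.49 ± 0.06 in dry NST, -1.41 ± 0.3 in rehydrated NST and 0.23 ± 0.09 in rehydrated ST (log2, SD, n = 3 each). Both tissues were off by at least 1 on opposite sides of full turgor for 160 (4.72%) and 517 (10.8%) of the genes.

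Genes without a drying call were also among those that differed, though a gene without a call may still have changed. Of the 6137 genes that passed in neither tissue on drying, 702 (11.4%) were higher and 1115 (18.2%) lower in rehydrated ST, against 22.9% and 30.7% of all tested genes. Their median log2 differences were 1.16 and -1.36, against 1.97 and -2.01 for the 2442 and 3215 genes that had moved the same way in both drying tissues. The 702 genes lay at 0.59 ± 0.14 in ST and -0.49 ± 0.15 in NST after rewatering, and the 1115 genes at -0.55 ± 0.09 and 0.76 ± 0.27 (SD, n = 3 each), which the choice of genes favours. PST stood between, at 0.09 ± 0.19 and -0.14 ± 0.23. When dry, the 702 genes lay at 0.33 ± 0.05 in NST and 0.04 ± 0.07 in ST. The 1115 genes lay at -0.36 ± 0.08 in dry NST and -0.17 ± 0.08 in dry ST. Their dry NST medians were thus on the same side as those of rehydrated ST.

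The tissue difference after rewatering was next set beside that of other stages. At full turgor ST differed from NST in 83 genes (0.443% of those tested), and at <10% RWC in 3473 (18.6%). These counts leave out the pairing of the tissues by replicate number seen at both stages. With the replicate number as a block, 168 genes were higher and 174 lower in ST at full turgor, and 4002 and 3332 at <10% RWC. After rewatering that fit called 12654 genes. The root mean square log2 difference between the group means was 0.42 at full turgor, 0.96 at <10% RWC and 1.77 after rewatering. The difference between stages was tested directly. From full turgor to the rehydrated stage it changed for 6784 genes (36.2%), upward in ST for 2941 (15.7%) and downward for 3843 (20.5%), and with the replicate block for 10429 genes in all. From <10% RWC to the rehydrated stage it changed for 9524 genes (50.9%), upward for 3959 (21.2%) and downward for 5565 (29.7%) (limma, adjusted p under 0.05). With the replicate block that total was 12489.

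Few genes kept the tissue difference of the dry leaf. At <10% RWC 2035 genes were higher in ST (10.9%) and 1438 lower (7.68%). Of the 2035 genes, 226 (11.1%) were also higher in rehydrated ST and 646 (31.7%) were lower, where 22.9% and 30.7% of all tested genes were. Of the 1438 genes, 135 (9.39%) were also lower and 672 (46.7%) were higher. The share that turned was thus near that of all genes for the first list and above it for the second. The kept genes made up 5.26% of the rehydrated higher list and 2.35% of the lower list. The differences at the 2 stages had a Pearson correlation of -0.12 across the 18717 genes (genes are no independent replicates). Relative to full turgor, the median of the 646 genes was 0.21 ± 0.5 in ST and -1.28 ± 0.22 in NST when dry, and -1.41 ± 0.13 in rehydrated ST and 0.31 ± 0.23 in rehydrated NST. For the 672 genes it was -0.2 ± 0.24 in ST and 1.01 ± 0.11 in NST when dry, then 1.02 ± 0.13 in rehydrated ST and -0.39 ± 0.14 in rehydrated NST (log2, SD, n = 3 each). The choice of these genes fixes the order of the tissues at both stages. Without ST at <10% RWC replicate 0 the lists of 2035 and 1438 fell to 928 and 797, of which 293 (31.6%) and 404 (50.7%) had turned, and without NST at <10% RWC replicate 2 to 1131 and 849, of which 380 (33.6%) and 446 (52.5%) had turned. The genes that were kept numbered 101 and 57 in the first case and 91 and 48 in the second. With the replicate number as a block, since the numbers pair the tissues at this stage, the lists held 4002 and 3332 genes, of which 1553 (38.8%) and 1549 (46.5%) had turned and 886 (22.1%) and 754 (22.6%) were kept. In that fit 37.9% of all tested genes were lower in rehydrated ST and 29.7% higher.

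The small difference at full turgor was partly shared. Of the 57 genes lower in ST at full turgor (0.305%), 53 (93%) were also lower in rehydrated ST, against 30.7% of all tested genes. Of the 26 genes higher at full turgor (0.139%), 4 (15.4%) were also higher, against 22.9%. The list of 57 depends on single libraries. It held 16 genes without ST at full turgor replicate 0, of which 14 were lower in rehydrated ST, and 27 without NST at full turgor replicate 2, of which 22 were. Without rehydrated NST replicate 2, which changes the shared estimate of the spread, the list held 114 genes, of which 109 were lower. The 26 genes were 3 and 7 in the first and second case, 16 without NST at full turgor replicate 0 and 40 without ST at full turgor replicate 1. Blocking on the replicate number gave 174 lower genes at full turgor, of which 160 (92%) were also lower after rewatering, and 168 higher genes, of which 81 (48.2%) were also higher, where 37.9% and 29.7% of all genes were. Under quantile normalization 15 of 35 higher genes (42.9%) were also higher, against 26.5% of all genes. The share of the higher list therefore lay below that of all genes in the main setting and above it in these. Across the 18717 genes the tissue difference after rewatering had a Pearson correlation of 0.33 with that at full turgor, 0.44 with that at 75%, 0.24 with that at 55% and -0.04 with that at 35% RWC.

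Rehydrated PST was used as a scale between the tissues, for the 3803 genes that differed by at least 2 on the log2 scale. Each gene's level was placed between the NST mean (0) and the ST mean (1). For genes higher in ST, the median position was 0.44, 0.35 and 0.87 in PST replicates 0, 1 and 2, and for genes lower in ST it was 0.46, 0.42 and 0.85. PST replicate 2 was nearer to ST for 98.1% of the higher and 87.1% of the lower genes. In replicate 0 these shares were 38.7% and 45.1%, and in replicate 1 they were 26.3% and 41%. Single ST libraries placed against the other ST libraries had medians of 0.93 or more, and single NST libraries medians of -0.06 to 0.11. The genes were chosen on these ST and NST libraries, which favours such values, while PST had no part in the choice. The rehydrated PST libraries are thus not alike, with 1 near ST and the others between the tissues.

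**Figure D5:**
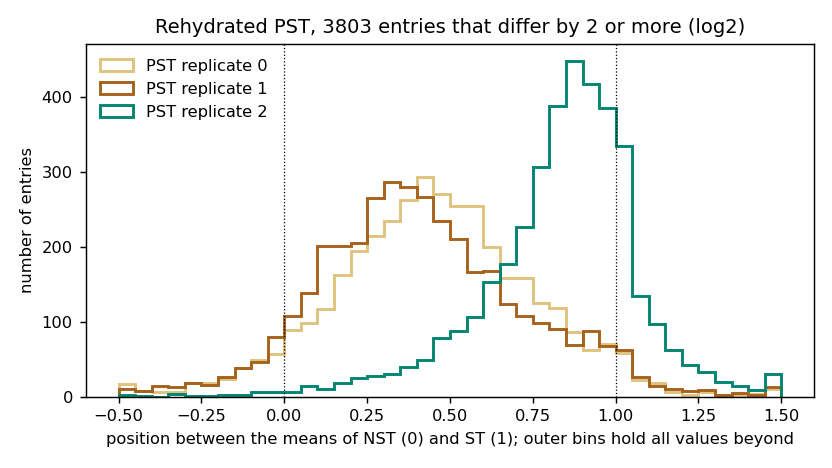
Distribution of the position of rehydrated PST between the means of NST (0) and ST (1) for 3803 genes, with 1 line per PST library and genes counted in bins. Replicate 2 peaks near ST, with medians of 0.87 and 0.85, and replicates 0 and 1 peak below the midpoint, with medians of 0.35 to 0.46.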

How the data were processed

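RNA sequencing was done on leaf blade libraries in 17 groups of 3. The authors deposited 1 table of FPKM values, and the submitters' processing notes name Bowtie2, TopHat and Cuffdiff. Their versions, filters and scaling are not stated in those sources. Because each value is relative to a measure of library size, a change in abundant transcripts can shift the others.

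Columns were assigned to groups by their names, which number replicates 0 to 2, and 0 columns of values were left unused. Entries sharing an ID (1032 entries under 499 IDs) were kept apart. Genes with at least 1 FPKM in at least 3 libraries were tested (18717, with 3098 left out). limma 3.58.1 in R 4.3.3 fitted log2(FPKM + 1) with 1 mean per group over all 51 libraries and a trend in the variance with 34 residual degrees of freedom. All p-values are two-sided and were adjusted by the Benjamini-Hochberg method over the tested genes. Differences between tissue differences were tested as interaction contrasts. Alternatives were another pseudocount, other filters, only the compared groups, a replicate block, quantile normalization, library weights, no variance trend, each ST or NST library of the rehydrated, full turgor and <10% RWC groups left out, and the similar rehydrated NST replicates 0 and 1 averaged.

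Relative depth was read from the steps between low values over 1254 entries. Between 90.5% and 96.9% of the low values in the rehydrated ST and NST libraries then lay within 0.15 of a whole fragment. Rehydrated NST replicates 0 and 1 differed by more than sampling noise (mean chi-square 3.91 per degree of freedom, with 1 expected) and were counted as 2 libraries. The replicate numbers paired ST with NST at full turgor and at <10% RWC. There the deviations of same-number libraries from their group means correlated at 0.68 to 0.75 and 0.39 to 0.54. No clear pairing was seen after rewatering, where the similar NST replicates 0 and 1 limit the check. The scripts were tested on simulated data. For rehydrated ST against NST, 22% of the simulated log2 changes of 1 and 72% of those of 2 were called, with 13 false calls. Only a small share of the genes was changed in that simulation, all of them above a minimum level. In the data 53.7% of the genes were called, so these rates need not hold for the comparison itself. Named genes are the unrepeated IDs with the largest log2 and the largest FPKM difference in each direction, among called genes whose libraries do not overlap and with a mean of at least 10 FPKM in the higher group. The comparison, the rule and the tests were chosen with earlier results of these data known.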

Additional observations from a re-analysis of the deposited data

Results flagged for a closer look

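The tissue difference between ST and NST was not the same at all stages, by a test of the change in the difference itself. Between full turgor and the rehydrated stage it changed for 6784 genes, and between <10% RWC and the rehydrated stage for 9524 genes (limma, adjusted p under 0.05).

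The named genes were among those that changed against full turgor, and all but Xvis03_203960 among those that changed against <10% RWC. Their choice by a large rehydrated difference favours this. For Xvis03_220597 the log2 difference was 4.48 larger after rewatering than at full turgor and 7.41 larger than at <10% RWC. For Xvis03_210618 these values were -8.33 and -9.74. For Xvis03_203960 the value was -4.00 against full turgor, while that of -3.03 against <10% RWC did not pass (limma, adjusted p = 0.0716). For Xvis03_211061 they were 9.46 and 9.74 on the log2(FPKM + 1) scale, both resting on a listed 0 in all rehydrated NST libraries, so they depend on the pseudocount and are no fold.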

How the results depend on the processing

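The count of genes that differ between rehydrated ST and NST stayed within 1.5 times of 10048 under all alternatives run, from 8622 with a filter of 5 FPKM to 12654 with the replicate block, and no call turned its direction. Leaving out 1 rehydrated library gave 8920 to 9546 genes in all, 3788 to 4155 higher and 5132 to 5465 lower, and averaging rehydrated NST replicates 0 and 1 gave 9038. The change in tissue difference gave 5891 to 6678 genes against full turgor and 8466 to 9315 against <10% RWC without 1 library. The named genes passed in all 15 fits each, with an adjusted p of at most 0.00406 in limma. They were chosen for large differences in the same libraries, which favours this result. No clear pairing by replicate number was seen in the rehydrated tissues. Same-number correlations of the deviations ran from -0.06 to 0.28, and NST replicate 1 correlated best with ST replicate 0 (0.25). NST replicate 2 correlated best with ST replicate 2 (0.28). NST replicates 0 and 1 are much alike, so the check could hardly tell their partners apart and cannot exclude a pairing. With the replicate block the change in tissue difference rose from 6784 to 10429 genes against full turgor, and from 9524 to 12489 against <10% RWC. With a filter of 5 FPKM, which tests 15034 genes, the genes lower in rehydrated ST without a drying call fell from 1115 to 720. The medians of the called sets in dry NST ran from 1.13 to 1.44 and from -2.02 to -1.19 over the alternatives. The course of the called sets in other groups could not be fitted with only the compared groups. Low values come in coarser steps where relative depth is lower, and the part of depth in the counts was not tested. The entries of at least 1 FPKM numbered 14262, 13970 and 13775 in ST replicates 0, 1 and 2. In the NST replicates they numbered 15934, 15979 and 15834.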

Other observations

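Some IDs occur more than once in the table. Of 450 IDs with several tested entries, 105 had all entries called the same way in rehydrated ST against NST, 149 had some called in 1 direction, 10 had entries called in opposite directions and 186 had none called.

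An exact 0 beside high values was rare. In rehydrated NST 3 entries, and in rehydrated ST 2, were listed at 0 in 1 library with at least 100 FPKM in the other libraries of the group, out of 15 such cases in all groups.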
